A study of Homo sapiens with 6 samples.

Results

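The CDK inhibitor genes of the CIP/KIP and INK4 families were followed in HCT116, a line of human colorectal carcinoma cells, after siRNA against CDK4 and CDK6. The members were the 7 genes CDKN1A, CDKN1B, CDKN1C, CDKN2A, CDKN2B, CDKN2C and CDKN2D, taken by name from the platform annotation of the arrays. Of these, 6 were named by at least 1 probe set and are analysed here, with 14 probe sets of 54613 and 6 genes of 19775. CDKN2C was named by no probe set in the annotation used and was not analysed here. Each gene is represented by its brightest probe set, judged by the average of all 6 arrays, and its other probe sets are given beside it.

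Cyclin-dependent kinases drive the cell cycle once a cyclin is bound, and both inhibitor families act on them as proteins. The INK4 proteins p16INK4a (CDKN2A), p15INK4b (CDKN2B), p18INK4c (CDKN2C) and p19INK4d (CDKN2D) bind CDK4 and CDK6 and keep D-type cyclins off them. The CIP/KIP proteins p21 (CDKN1A), p27 (CDKN1B) and p57 (CDKN1C) bind cyclin-CDK complexes and are best known for blocking CDK2, while cyclin D complexes can hold them away from it. HCT116 cells are known to have functional p53, the main activator of CDKN1A, and to lack functional p16INK4a.

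In the treated group cells received 30 nM of an siRNA pool against CDK4 together with 30 nM of an siRNA against CDK6. In the control group they received 30 nM each of a non-targeting pool and a negative control siRNA. RNA was taken 96 h after transfection, and each group had 3 arrays that the labels call biological replicates, without saying whether the cultures were started separately. The p-values therefore measure array-to-array spread, which may be technical. The series title concerns MYC addiction as an adaptive response to CDK4/6 inhibition, and the comparison here is CDK4/6 siRNA against control siRNA.

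Values are expression on a log2 scale after robust multi-array averaging (RMA). Array medians lay between 5.36 and 5.39, and arrays of one group correlated at 0.998 or more across genes. A log2 fold change is CDK4/6 siRNA minus control siRNA, and a gene was called changed at a limma adjusted p under 0.05. CDK6 fell to 34.0% and CDK4 to 62.2% of the control level. Of 9 colon epithelial markers, EPCAM, CDH1, KRT8, KRT18 and KRT19 were bright, at control means of 10.96 to 13.16, while KRT20, CDX1, CDX2 and VIL1 lay between 5.02 and 5.97. Of the 9, KRT8 (0.59), KRT18 (0.51) and KRT20 (0.75) rose, CDH1 fell by 0.54, and the other 5 did not pass. Markers of leukocytes and endothelium lay at control means of 3.78 to 6.29, and the fibroblast marker COL1A1 at 8.09, from which it fell by 0.49. The other 3 fibroblast markers, at 4.72 to 5.98, did not pass. The part of these marker changes in the results below was not tested. These are RNA levels of a whole culture, so fewer cells with a transcript and less of it per cell cannot be told apart.

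Of the 6 measured inhibitor genes, CDKN1C, CDKN1B, CDKN2B and CDKN2D fell, and CDKN1A and CDKN2A did not pass the threshold. By comparison, 12.9% of all genes were called lower, 14.0% higher and 26.8% in either direction. In the same 4 genes every treated array lay below every control array, as was so for 20.3% of all genes, with 40.9% not overlapping in one direction or the other. The 4 falling genes were split evenly between the families, 2 of 3 CIP/KIP genes and 2 of 3 measured INK4 genes. The order of the falls ran from CDKN1C through CDKN1B and CDKN2B to CDKN2D.

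CDKN1C encodes p57, an inhibitor expressed mainly from the maternal chromosome and known for its role in growth restraint during development. The control arrays gave 9.77, 9.83 and 9.83, and the CDK4/6 siRNA arrays gave 8.50, 8.35 and 8.34. The groups were more than a full log2 unit apart and the arrays of each group lay close together. The change was -1.41 (SE 0.063, n = 3 arrays per group, limma adjusted p = 1.46e-05), which left 37.6% of the control level, with a 95% interval of 34.1% to 41.5%. In the order of all 19775 genes by fold change, CDKN1C ranked 11 from the bottom.

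CDKN1B encodes p27, whose level is high in resting cells and falls as cells enter the cycle. The control arrays gave 10.31, 10.39 and 10.61, and the CDK4/6 siRNA arrays gave 9.50, 9.59 and 9.58. Control replicate 3 was the highest of all, and without any overlap every treated array lay below every control array. The change was -0.88 (SE 0.082, limma adjusted p = 0.000147), to 54.3% of the control level (95% interval 47.7% to 61.7%). It ranked 97 from the bottom.

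CDKN1A encodes p21, the inhibitor induced by p53 after DNA damage. The control arrays gave 10.48, 10.54 and 10.40, and the CDK4/6 siRNA arrays gave 10.52, 10.37 and 10.40. The groups overlapped throughout. The change was -0.043 (SE 0.066, limma adjusted p = 0.707), with a 95% interval of -0.19 to 0.11 that corresponds to 87.5% to 107.6% of the control level. A fall of the size seen for CDKN1B or CDKN1C lies outside that interval.

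Among the INK4 genes, CDKN2B encodes p15INK4b, an inhibitor known to be induced by TGF-beta. The control arrays gave 6.19, 5.97 and 6.19, and the CDK4/6 siRNA arrays gave 5.47, 5.51 and 5.56. The groups did not overlap, but both lay near the level at which many markers of other cell types were read. The change was -0.61 (SE 0.072, limma adjusted p = 0.000439), to 65.7% of the control level (95% interval 58.6% to 73.6%). With the mean of the CDKN2B probe sets in place of the brighter one it was -0.27 and still passed (limma adjusted p = 0.0195).

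CDKN2D encodes p19INK4d, whose transcript is known to vary through the cell cycle. The control arrays gave 7.12, 7.19 and 7.12, and the CDK4/6 siRNA arrays gave 6.81, 6.58 and 6.80. Treated replicate 2 was the lowest, and the groups did not overlap. The change was -0.41 (SE 0.073, limma adjusted p = 0.00296), to 75.0% of the control level (95% interval 66.9% to 84.2%).

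CDKN2A encodes p16INK4a and, from a different first exon, the p53 regulator ARF. Which of these transcripts a probe set reads was not determined here. The control arrays gave 7.60, 7.63 and 7.57, and the CDK4/6 siRNA arrays gave 7.61, 7.68 and 7.61. The groups overlapped, and the change was 0.029 (SE 0.054, limma adjusted p = 0.758), with a 95% interval of -0.092 to 0.15.

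**Figure D1:**
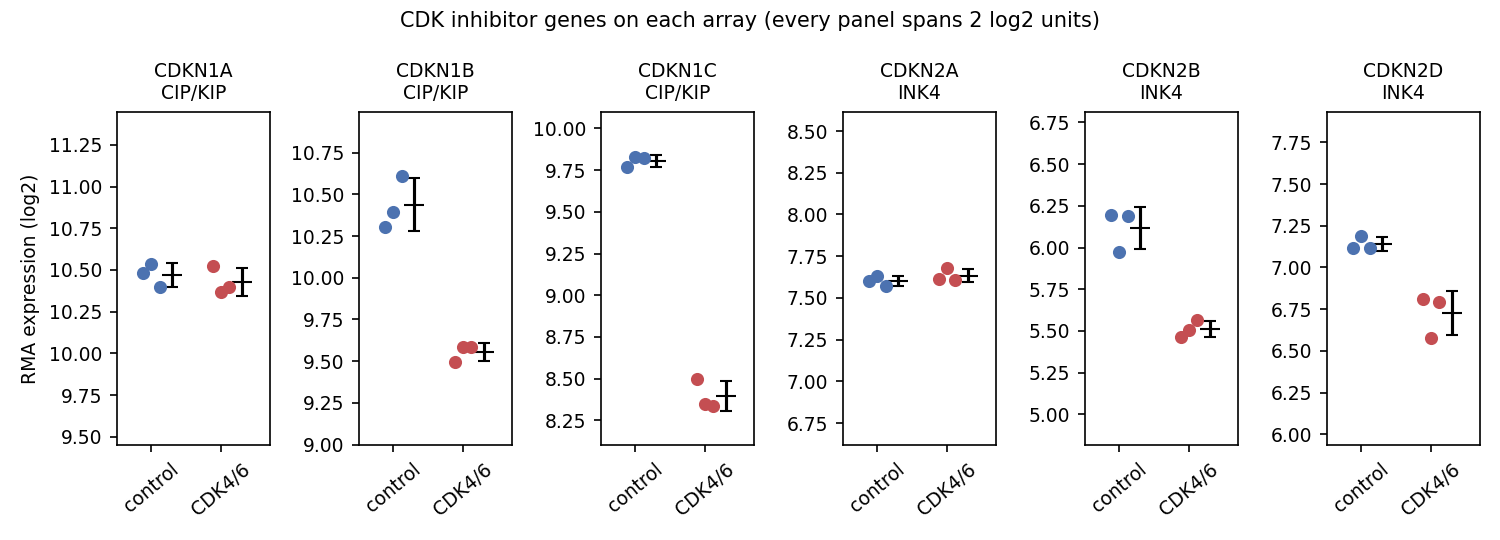
RMA expression (log2) of the 6 measured CDK inhibitor genes on each array, with control siRNA in blue and CDK4/6 siRNA in red, and the mean ± SD of the 3 arrays as a black bar. Every panel spans the same 2 log2 units, so the gaps can be compared by eye: CDKN1C (-1.41) and CDKN1B (-0.88) have the widest gaps, and in CDKN1A and CDKN2A the groups overlap.

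For a single gene the two-sided exact permutation test over 3 arrays against 3 cannot give a p under 0.1. It gave 0.1 for CDKN1B, CDKN1C, CDKN2B and CDKN2D, 0.6 for CDKN1A and 0.4 for CDKN2A. The hybridisation spike-ins, control RNAs added to the hybridisation mix, read 0.11 lower in the CDK4/6 siRNA arrays. Scaling to these RNAs moved the median log2 fold change over all genes to 0.11. The 4 falling genes then stood at -1.30, -0.77, -0.50 and -0.31 in the same order and kept their calls, and CDKN1A turned from -0.043 to 0.065 without passing.

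The probe sets of a gene did not always give the same value. Of the 14 member probe sets, 7 fell in a fit over all 54613 probe sets, in which 8.17% were called lower and 17.0% in either direction. CDKN1C had 5 of them. Its brightest, 213348_at, fell by 1.41, and 219534_x_at, 213182_x_at and 216894_x_at, at control means of 7.89 to 8.03, fell by 1.28, 1.21 and 1.14. The last CDKN1C probe set, 219533_at, was dim at a control mean of 4.54 and gave 0.12 (limma adjusted p = 0.268 over probe sets). Its treated arrays all lay above its control arrays.

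CDKN2B and CDKN2D each had a second, dimmer probe set that did not pass. For CDKN2B, 207530_s_at gave 5.24, 5.05 and 5.13 in the control arrays and 5.22, 5.39 and 5.03 in the CDK4/6 siRNA arrays. These values overlapped, and the change was 0.073 (limma adjusted p = 0.709 over probe sets). Within each array the brighter CDKN2B probe set exceeded the dimmer one by 0.93 to 1.05 in controls and by 0.12 to 0.54 in treated cells, so the fall of CDKN2B rests on 236313_at. That per-array difference changed by -0.68 (exact permutation p = 0.1, the smallest possible; 0.2 after adjustment over 8 such comparisons).

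For CDKN2D, 213586_at lay at a control mean of 4.74 and gave -0.17 with overlapping groups (limma adjusted p = 0.434 over probe sets). It is the only CDKN2D probe set whose name has no _s or _x mark (a mark for probes that may match several transcripts or genes). With such unmarked, plain-name probe sets alone CDKN2D was no longer called (-0.17, limma adjusted p = 0.394). The falling CDKN1C probe sets other than 213348_at carry the _x mark, and the unmarked 219533_at did not fall. CDKN2A had 3 probe sets, of which 207039_at gave -0.018 and the dim 211156_at gave 0.086, and none passed. CDKN1A and CDKN1B rest on 1 probe set each.

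**Figure D2:**
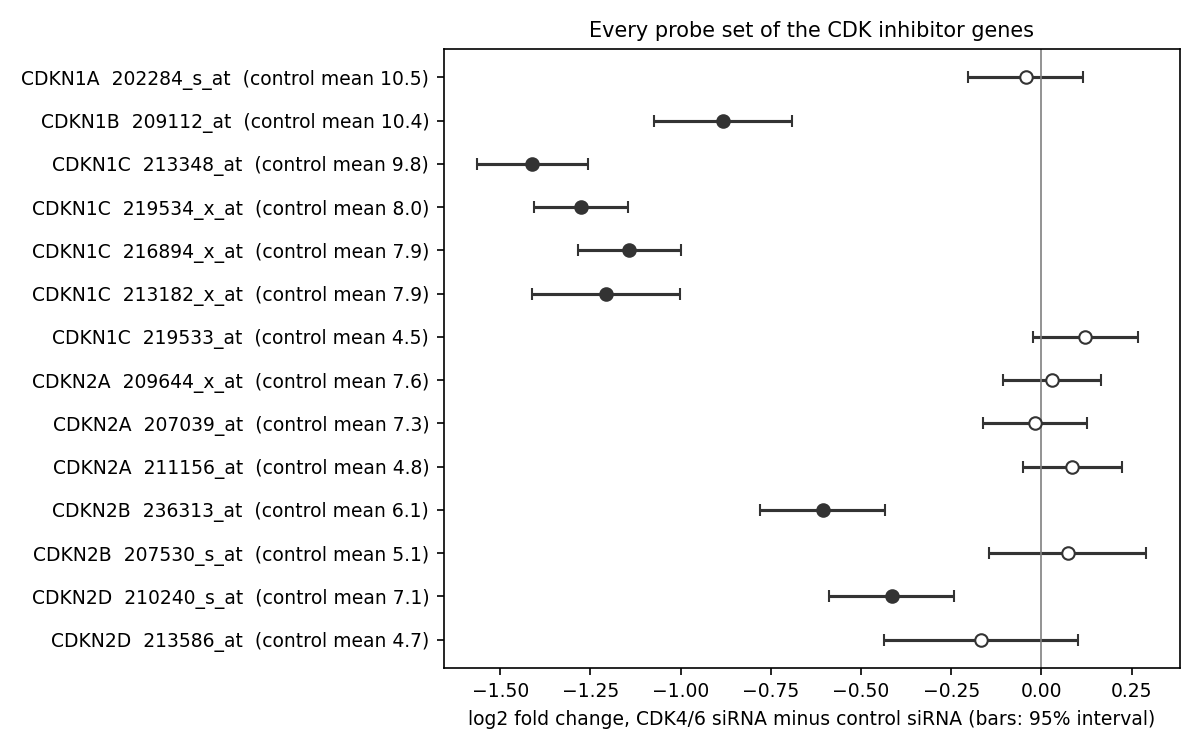
Log2 fold change of the 14 probe sets of the CDK inhibitor genes, CDK4/6 siRNA minus control siRNA, as a point with its 95% interval from limma. Filled points passed an adjusted p under 0.05 over all probe sets. The 4 brighter CDKN1C probe sets lie between -1.41 and -1.14, and every probe set with a control mean under 5.2 is open.

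Whether members of a family changed by different amounts was tested on the per-array log2 difference between them, over 6 pairs. CDKN1A minus CDKN1C went from a mean of 0.66 in controls to 2.03 in treated cells, a change of 1.37. CDKN1A minus CDKN1B changed by 0.84 and CDKN1B minus CDKN1C by 0.53. In the INK4 family, CDKN2A minus CDKN2B changed by 0.64 and CDKN2A minus CDKN2D by 0.44. The groups did not overlap in any of these 5 pairs. Each had an exact permutation p of 0.1, the smallest that 3 arrays against 3 allow, and 0.12 after adjustment over the 6 pairs, so none passed. With each gene's probe sets averaged, CDKN1B minus CDKN1C changed by only 0.10 and CDKN2A minus CDKN2B by 0.30. CDKN2B minus CDKN2D overlapped between the groups and changed by -0.19 (exact permutation p = 0.2, adjusted 0.2), and by 0.024 with the probe sets averaged.

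The promoters of the inhibitor genes are shown because 4 members fell and 1 of the CIP/KIP genes did not, and because the regulators described next act through short promoter motifs. The sequences are the 250 bases before the annotated start, from RefSeq on GRCh38.p14, and 6 of the 7 members were found in that table, all but CDKN1C. Capitals mark matches on either strand to the motifs searched. CCAAT is the motif bound by NF-Y. GGGCGG is the motif bound by SP1 and SP3. CACGTG is the E-box that MYC binds. TGTTTAC is a forkhead motif of FOXO factors.
CDKN1A, chr6:36678464-36678713, plus strand: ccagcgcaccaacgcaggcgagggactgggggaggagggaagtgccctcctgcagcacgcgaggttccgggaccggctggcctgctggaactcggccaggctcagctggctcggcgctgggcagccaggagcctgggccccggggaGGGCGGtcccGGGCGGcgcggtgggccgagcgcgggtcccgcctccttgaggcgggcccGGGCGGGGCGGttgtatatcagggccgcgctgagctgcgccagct
CDKN1B, chr12:12717118-12717367, plus strand: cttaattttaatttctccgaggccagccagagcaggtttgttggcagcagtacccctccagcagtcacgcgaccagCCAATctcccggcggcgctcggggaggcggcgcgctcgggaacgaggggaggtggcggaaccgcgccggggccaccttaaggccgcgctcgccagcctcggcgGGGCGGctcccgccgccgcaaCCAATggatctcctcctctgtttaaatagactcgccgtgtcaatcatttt
CDKN2B, chr9:22009306-22009555, minus strand: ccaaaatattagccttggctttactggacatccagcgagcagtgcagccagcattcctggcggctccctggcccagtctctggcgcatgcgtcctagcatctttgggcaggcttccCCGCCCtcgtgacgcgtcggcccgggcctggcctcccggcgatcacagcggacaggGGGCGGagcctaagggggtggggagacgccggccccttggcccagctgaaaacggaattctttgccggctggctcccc
CDKN2D, chr19:10568980-10569229, minus strand: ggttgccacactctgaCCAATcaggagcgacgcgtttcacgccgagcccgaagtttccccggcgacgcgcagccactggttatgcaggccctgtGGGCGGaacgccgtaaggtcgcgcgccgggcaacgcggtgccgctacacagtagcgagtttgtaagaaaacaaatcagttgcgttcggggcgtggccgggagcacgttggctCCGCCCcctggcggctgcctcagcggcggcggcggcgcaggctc

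The CDKN1A window held 4 GGGCGG matches, the nearest pair of which share a base, and no CCAAT. The CDKN1B window held 2 CCAAT matches, starting 174 and 50 bases before the start, and 1 GGGCGG. The CDKN2D window held 1 CCAAT and 2 GGGCGG matches, and CDKN2B held no CCAAT but 2 GGGCGG matches. Neither CACGTG nor TGTTTAC was in any of these 4 windows. The windows of CDKN2A and CDKN2C are not printed because these genes have several annotated starts, and the start in use was not determined here. Of the 2 CDKN2A windows 1 held a single GGGCGG, and neither held another of the motifs. Of the 3 CDKN2C windows 2 held CACGTG, 2 held GGGCGG and 1 held CCAAT, and no RNA value of CDKN2C stands beside them. Over all 35116 promoters of the table, 32.0% held CCAAT, 42.6% GGGCGG, 6.34% CACGTG and 2.98% TGTTTAC. A match is a description of the letters, and binding was not measured in these cells.

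The kinases and cyclins that the inhibitors bind changed in both directions. Of 13 measured, 4 rose and 4 fell, a share of 61.5% called against 26.8% of all genes. This list and those below were chosen with earlier results of these data known. All genes, in contrast, include dim ones, so the shares are only descriptive. The siRNA targets CDK4 and CDK6 are 2 of the 4 falls, and of the other 11 genes 4 rose and 2 fell, a share of 54.5%. On the spike-in scale, on which 23.9% of all genes were called higher and 6.68% lower, 5 of the 13 rose and 2 fell, CDK4 and CDK6. Cyclin D1 (CCND1) rose by 0.93, and the cyclins that activate CDK2, CCNE1 and CCNE2, rose by 1.12 and 1.53 (limma adjusted p from 3.64e-05 to 0.00035). A dim second CCNE1 probe set gave -0.067 and did not pass, and the mean of both was 0.53. Named after their values were seen, the remaining calls were the cyclin D3 gene CCND3, which rose by 0.76, and the mitotic genes CCNB2 and CDK1, which fell by 0.29 and 0.26. CCNB2 (-0.18) and CDK1 (-0.15) did not pass on the spike-in scale. The list median was 0.0063. Among the other proteins that bind CDKs or act beside the inhibitors, 2 of 8 rose and 3 fell (62.5% called), or 2 and 1 on the spike-in scale. CDC37, the HSP90 cochaperone that folds CDK4, rose by 0.56 and PCNA, the replication clamp that p21 binds, by 0.42, a call lost without variance moderation. CDK2AP2, a relative of a CDK2-associated protein, fell by 0.35, and the phosphatase CDKN3 by 0.24, which was not called on the spike-in scale (-0.13) or when array 2 of the controls was left out (-0.22).

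CDKN1A did not pass, while several of its known transcriptional regulators did. Of 14 measured regulators 5 fell and 1 rose, a share of 42.9% against 26.8% of all genes, with a median of -0.10. With the spike-in scaling 1 fell and 3 rose, and that scaling moved the balance of all genes the same way, from 2762 higher and 2545 lower to 4731 and 1320. KLF4, an activator of CDKN1A, fell by 0.97 (limma adjusted p = 6.81e-05), with control arrays at a mean of 10.96 and treated arrays at 9.99. MYC, which represses CDKN1A, rose by 0.42. KLF6 (-0.34) and SP3 (-0.32) fell as well and lost their calls with the spike-in scaling (-0.23 and -0.21), and the mean of the SP3 probe sets was -0.16. Of 17 other p53 target genes 3 rose and 4 fell, a share of 41.2% against 26.8% of all genes, with a median of 0.028. With the spike-in scaling, and its shift of all genes toward higher calls, 7 rose and 1 fell. TP53I3, a quinone oxidoreductase, rose by 0.90, TP53INP1 by 0.64 and the death receptor FAS by 0.39, and the DNA repair gene DDB2 fell by 0.81. FAS lost its call on its plain-name probe set (0.15). TP53INP1 rose on its brightest probe set alone, its 2 dimmer ones gave 0.0044 and 0.0052, and the mean of the 3 was 0.22.

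Of 11 transcriptional regulators of CDKN1B, 5 fell and 0 rose, a share of 45.5% called against 26.8% of all genes, with a median of -0.16. With the spike-in scaling 3 fell and 3 rose, beside 6.68% and 23.9% of all genes. The forkhead factors FOXO6 and FOXO3, of a family that activates CDKN1B, fell by 0.51 and 0.40. NFYA, the NF-Y subunit that contacts CCAAT, fell by 0.45. The methyltransferase KMT2A, which acts with menin at CDKN1B, fell by 0.31, but did not pass on the spike-in scale (-0.20), and its probe sets averaged -0.19. NFYA and FOXO3 fell on several probe sets, with FOXO3 at -0.42 and -0.60 on the next brightest. Their limma adjusted p lay between 0.000875 for FOXO6 and 0.00317 for KMT2A.

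Genes for the breakdown of p27, p21 and p57 protein were counted apart, since these arrays measure RNA and not protein. Of 19 measured, 5 rose and 1 fell, a share of 31.6% that is near the 26.8% of all genes. With the spike-in scaling 10 rose and 0 fell, on a scale that called 23.9% of all genes higher. SKP2, the F-box protein that marks p27 for destruction, rose by 0.54 (limma adjusted p = 0.00123). DTL, which brings p21 to the CUL4 ligase in S phase, rose by 0.79. The kinase SGK1, which can phosphorylate p27, rose by 0.55, a call lost without variance moderation. The scaffold CUL4B fell by 0.22 on its brightest probe set and by 0.44 to 0.76 on 3 others, and the brightest was not called on the spike-in scale (-0.11). A second SKP2 probe set, dimmer than the first, gave -0.097 and did not pass, and the mean of the SKP2 probe sets was 0.23. The CUL4B probe sets averaged -0.53.

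Of 19 Polycomb, DNA methylation and other regulators of the INK4 locus, 4 rose and 6 fell, or 5 and 4 with the spike-in scaling, and 52.6% were called against 26.8% of all genes. ETS1, an activator of CDKN2A, fell by 0.75 on its brightest probe set and by 0.40 on the mean of its 3, and the Polycomb protein CBX7, which represses the locus, fell by 0.52. CBX2 rose by 0.43 and the DNA methyltransferase DNMT3B by 0.40. CBX2 lost its call with the mean of its probe sets (0.030). Of 13 TGF-beta and BMP pathway genes 3 rose and 3 fell (46.2% called), or 4 and 1 with the spike-in scaling. That scaling called 23.9% of all genes higher and 6.68% lower. SKIL, a repressor of SMAD signalling, fell by 0.70, or by 0.40 on the mean of its probe sets, and the type I receptor TGFBR1 by 0.33, while ID3 rose by 0.43 and SMAD5 by 0.30. TGFBR1 was not called on the spike-in scale (-0.22), and neither TGFBR1 (-0.16) nor SMAD5 (0.081) was called on the mean of its probe sets.

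**Figure D3:**
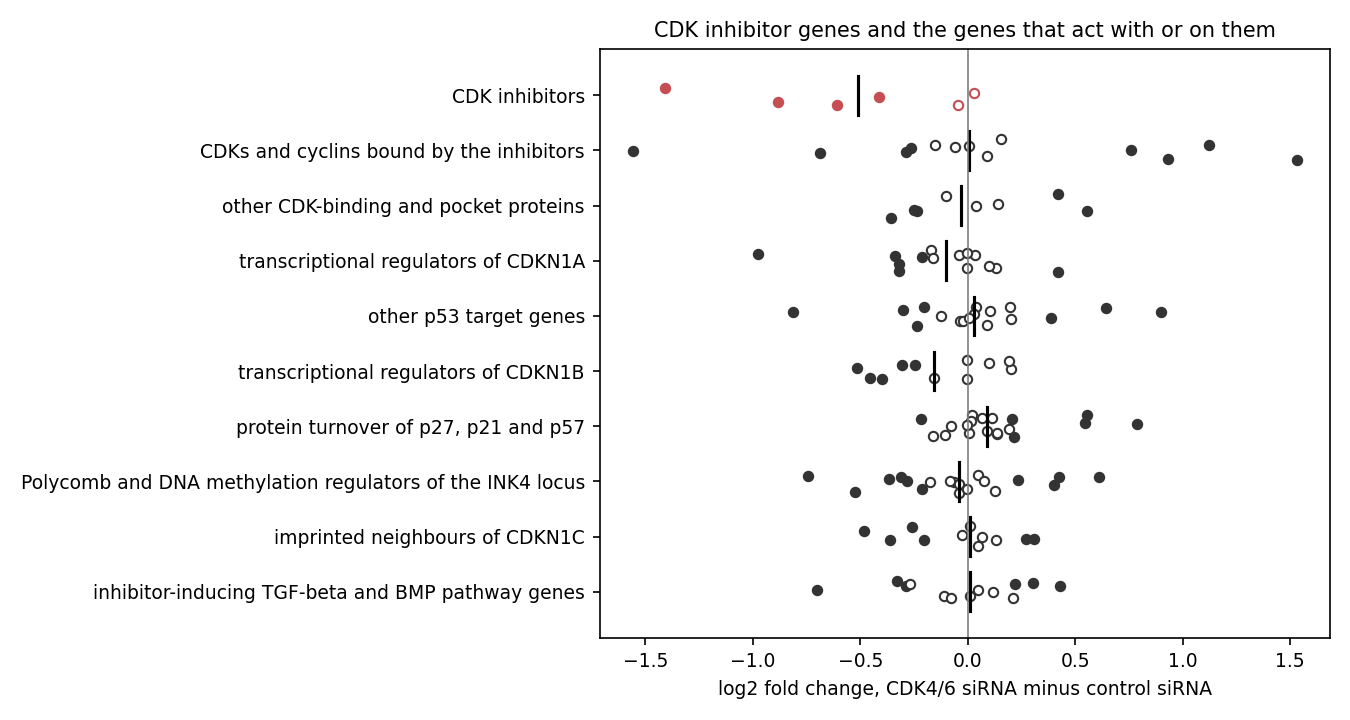
Log2 fold changes, CDK4/6 siRNA minus control siRNA, of the measured CDK inhibitor genes (red) and of the genes in the 9 lists (black). Besides genes that act with or on the inhibitors, the lists hold other p53 target genes and imprinted neighbours of CDKN1C. Each row has 1 point per gene and a bar at its median. Filled points were called at a limma adjusted p under 0.05. The kinases and cyclins reach from -1.56 to 1.53 around a median of 0.0063, and 4 of the 6 inhibitor genes are filled and lie to the left of 0.

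CDKN1C lies in an imprinted region, and 11 of 13 listed genes of that region were measured. Of these 2 rose and 4 fell, with a median of 0.0086, and 54.5% were called against 26.8% of all genes. With the spike-in scaling 2 rose and 2 fell, on a scale that called 23.9% of all genes higher and 6.68% lower. SLC67A1, an organic cation transporter gene written in the list under its older name, fell by 0.48 (limma adjusted p = 0.000289). The potassium channel gene KCNQ1 fell by 0.36, with a second probe set at 0.0029 and the mean of its probe sets at -0.18. TH fell by 0.26 at a control mean of only 3.97 and was not called on the spike-in scale (-0.15). NAP1L4, a histone chaperone, rose by 0.31, a value that was 0.051 and not called on the mean of its probe sets and turned to -0.26 on plain-name probe sets. The fall of CDKN1C, at -1.41, was larger than that of any of these.

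Next to the members on the chromosome, by gene order in RefSeq, the nearest measured genes gave mixed values. The genes beside CDKN1C, KCNQ1DN (-0.12) and SLC67A1-AS (-0.027), did not pass. APOLD1, which follows CDKN1B, fell by 0.86 (limma adjusted p = 9.34e-05), close to the -0.88 of CDKN1B, while GPR19 on the other side gave -0.091 and did not pass. In the order of start coordinates, the antisense transcript CDKN2B-AS1 comes between CDKN2A and CDKN2B, and its extent was not examined. It was dim, at a mean of 3.42, and gave 0.076 with overlapping groups. The other antisense transcript, CDKN2A-AS1, gave -0.046, also with overlapping groups. DMRTA1, beyond CDKN2B, fell by 0.29 at a mean level of 5.03, a call lost with the spike-in scaling (-0.18) and without variance moderation. CPNE5 beside CDKN1A gave 0.026 and did not pass, while neighbours of CDKN1A (SRSF3, 0.31) and CDKN2D (KRI1, 0.26, and AP1M2, 0.24) rose. SRSF3 stood at 1.10 on plain-name probe sets. AP1M2 was not called without variance moderation, with the replicate block (limma adjusted p = 0.0503), or when array 1 (0.23) or 3 (0.21) of the controls or array 1 (0.22) or 3 (0.22) of the treated cells was left out.

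The genes whose pattern over the 6 arrays was closest to each falling inhibitor were found by the root mean square distance between values minus the control mean. For CDKN1B these were the NF-kappaB subunit gene REL (distance 0.024), ALDH6A1 (0.028) and PJA2 (0.047). REL read 8.26, 8.31 and 8.58 in controls and 7.47, 7.53 and 7.56 in treated cells, and shared the high control replicate 3 with CDKN1B. For CDKN1C they were the Hedgehog receptor PTCH1 (0.074), the glucocorticoid-induced leucine zipper gene TSC22D3 (0.082) and LEMD1 (0.10). For CDKN2B they were PRPH (0.028), GRAMD1B (0.042) and the mitotic kinesin KIF20A (0.049). For CDKN2D they were RNF144A (0.014), ZCCHC24 (0.035) and SLC27A3 (0.037). On plain-name probe sets ALDH6A1 gave -0.037 and TSC22D3 gave 0.011, and on the mean of their probe sets PTCH1 gave -0.37, TSC22D3 -0.55 and ALDH6A1 -0.56, so the likeness of these 3 genes belongs to their brightest probe sets. RNF144A was not called on the mean of its probe sets (-0.19), nor SLC27A3 without variance moderation. The distance is a description over 6 arrays of 2 groups, in which all of these genes share the contrast between the groups.

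**Figure D4:**
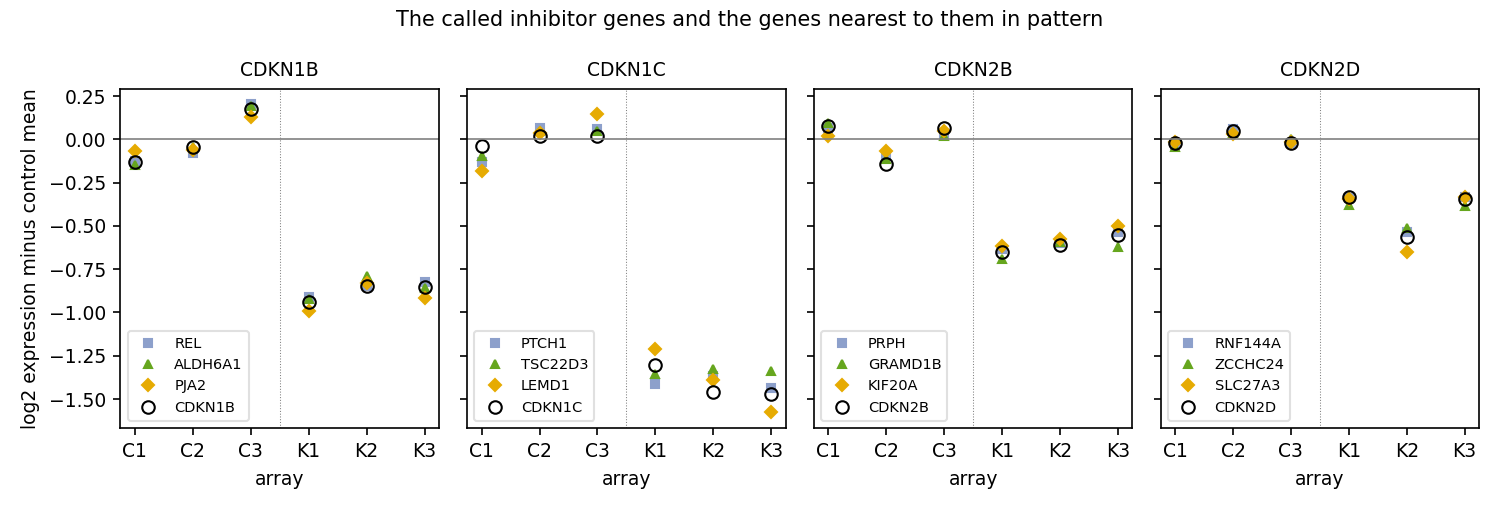
Log2 expression minus the control mean on control arrays (C1 to C3) and CDK4/6 siRNA arrays (K1 to K3) for the 4 falling inhibitor genes (open circles) and the 3 genes closest to each in pattern (filled symbols). Control replicate 3 is the highest control for CDKN1B and its 3 closest genes, and treated replicate 2 is the lowest for CDKN2D and its 3.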

How the data were processed

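Gene expression was measured on 6 single-channel Affymetrix arrays of HCT116 cells, 3 per siRNA group. The authors deposited log2 expression values. RMA is the method named in the submitters' processing notes: background correction, quantile normalization between arrays and a summary per probe set. Its version is not given in the sources used here. Fold changes are therefore relative to the bulk of the genes, and changes of dim probe sets are compressed. Precision is limited by having 3 arrays per group, and detection calls were not used here.

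Of 54675 probe sets 62 were controls. The annotation gave 1 symbol to 41097, several to 1801 and none to 11777. No member was named among several symbols. The brightest probe set stood for each of 19775 genes. Linear models with moderated variances (limma 3.58.1, R 4.3.3) were fitted over all genes, and over all 54613 probe sets for the others, with Benjamini-Hochberg adjustment. On simulated data with 19775 genes, 100 genes were changed by 0.5 and 100 by 1, and 74% and 98% of them were called. Of the 187 calls there, 15 were false. Far fewer genes changed there than the 26.8% called on the real arrays, so these shares need not hold for them. Figures used matplotlib 3.10.9.

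The members and the 9 lists were chosen with earlier results of these data known. Named genes were the members, up to 4 called genes per list, ranked by adjusted p, and the 3 genes closest to each called member. Chromosome neighbours, motifs and differences between probe sets were added after their values were seen. Of 139 list genes 125 were measured, 2 under a newer symbol. Alternatives were 3 scalings, dim genes left out, other probe set rules, other variance models, a threshold of 0.01, the replicate block and each array left out.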

Additional observations from a re-analysis of the deposited data

How the results depend on the processing

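The calls of CDKN1B, CDKN1C and CDKN2B held under all 17 alternatives, with ranges of -0.95 to -0.77, -1.46 to -0.98 and -0.68 to -0.27. For all of these genes this was partly built in. CDKN1B has 1 probe set, so the probe set rules could not change its value. For CDKN1C the plain-name rule kept 213348_at, and for CDKN2B every setting kept 236313_at, alone or in the mean. The other CDKN2B probe set, 207530_s_at, passed under none of its alternatives (limma adjusted p from 0.262 to 0.95). CDKN2D (-0.46 to -0.17) lost its call only on plain-name probe sets (-0.17). With 1 array left out the 4 genes ran from -0.95 to -0.79, -1.46 to -1.38, -0.68 to -0.57 and -0.46 to -0.34. CDKN1A and CDKN2A passed under none, and CDKN1A has no plain-name probe set. Scaling to the spike-ins turned CDKN1A (0.065), the CDKN2A probe set 207039_at (0.091), GPR19 (0.017), SLC67A1-AS (0.081) and CDKN2A-AS1 (0.062), and moved the pathway genes called from 24 higher and 35 lower to 41 and 15. Of all genes it called 4731 higher and 1320 lower, against 2762 and 2545. At a threshold of 0.01 it was 1803 and 1523. Plain-name probe sets turned CDKN2A (-0.018), NAP1L4 (-0.26) and TSC22D3 (0.011). The mean of all probe sets turned the difference CDKN2B minus CDKN2D (0.024). With 1 array left out, signs turned for values near 0, which lay between -0.080 and 0.054 for SLC67A1-AS, -0.064 to 0.17 for CDKN2B-AS1, -0.014 to 0.081 for CPNE5 and -0.12 to 0.038 for CDKN2A-AS1. The probe set 207039_at of CDKN2A ran from -0.058 to 0.0070, and 207530_s_at of CDKN2B from -0.015 to 0.17. The causes were not tested.

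The labels share replicate numbers between the groups without saying what they mark. Deviations of same-numbered arrays correlated at -0.010, -0.12 and -0.0066, so the numbers were not taken to pair the arrays. Because the design is balanced over these numbers, the replicate block could not alter any fold change, only its p-value. It kept the 4 calls (limma adjusted p = 0.000242 for CDKN1B, 7.32e-05 for CDKN1C, 0.000909 for CDKN2B and 0.00697 for CDKN2D). With the block 22 pathway genes were called higher and 32 lower.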
